A study of Mus musculus with 6 samples.

Results

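The 33 genes described here encode enzymes and regulators of sterol and fatty acid synthesis. They fall into 14 enzymes of the sterol pathway, 5 regulators, 3 sterol transport proteins and 11 enzymes of fatty acid synthesis, elongation and desaturation. A gene was included where a probe set on the array carried its symbol alone, and it was represented by the probe set with the highest mean signal over all 6 arrays. By this rule 32 of the 33 genes were found among 18193 genes with such a probe set, and no probe set of this kind was found for Acat2. Of these 32, 31 entered the tests and Fads2, at 23.8 to 67.2, was too dim. A gene was tested if its signal reached the median of the array on at least 2 of the 6 arrays, which 10838 genes did.

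RNA came from splenic CD8+ T cells, labelled as naive, of C57/BL6 mice that were wild type (Nrdp1+/+) or lacked Nrdp1 (Nrdp1-/-), an E3 ubiquitin ligase encoded by Rnf41. Cells of each genotype were left untreated, or were stimulated for 4 h or 8 h with anti-CD3 fixed to the plate at 5 µg/ml together with anti-CD28 in solution at 1 µg/ml. Each of these 6 conditions was measured on 1 Affymetrix mouse 430 2.0 array, and the labels give neither the number, age or sex of the mice nor how the deletion was made. The p-values below therefore set an effect of time or genotype against the spread of these arrays around an additive pattern of both, which may be technical.

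The labels describe the RNA as extracted from colon, against the CD8+ T cell titles. All 4 measured CD8+ T cell markers (Cd8a, Cd8b1, Cd3e and Cd3g) were above the array median on all 6 arrays, and 5 of 6 colon epithelium markers were below it on all 6. The exception was Epcam, at 173 to 529. The preparations differed in markers of other cells. The summed signal of 11 B cell markers was 13449 to 15732 on the wild-type arrays and 2772 to 3086 on the Nrdp1-/- arrays. The summed signal of 13 myeloid markers was 2873 to 3472 in wild type and, in Nrdp1-/- cells, 13643 untreated, 9461 at 4 h and 3668 at 8 h. Itgam was below the array median on all 6 arrays. In RNA of a cell mixture, fewer cells of a type and less RNA per cell cannot be told apart. The brightest Rnf41 probe set gave 505 to 728 in wild type and 437 to 528 in Nrdp1-/- cells, a mean difference of -0.36. Another of its 4 probe sets gave 181, 166 and 161 in wild type and 54.5, 70.9 and 83.7 in Nrdp1-/- cells, a mean difference of -1.25 with no overlap, and the other two differed by 0.00 and 0.25. No source used here says which exons were deleted.

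Sterols and fatty acids are both built from cytosolic acetyl-CoA, and dividing lymphocytes need both for new membrane. When sterol in the endoplasmic reticulum is low, the escort protein Scap carries the SREBP precursors, encoded by Srebf1 and Srebf2, to the Golgi, where they are cut to release transcription factors. Insig1 and Insig2 hold Scap back when sterol is plentiful. SREBP-2 mainly drives sterol genes and SREBP-1 mainly fatty acid genes, while oxysterols act through LXR receptors to raise the exporters Abca1 and Abcg1.

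Values are deposited MAS5 signals on a linear scale, given in the order untreated, 4 h and 8 h. Signals of different probe sets are not comparable with one another, so only changes of a gene are set side by side. Changes are differences in log2(signal + 4.45) with the standard error (SE) from limma over the 6 arrays, and "rose" and "fell" are used for genes with an adjusted p under 0.05 across all 10838 genes.

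Stimulation was followed by higher signal for a subset of the sterol enzymes, all of them at or after the isopentenyl diphosphate isomerase step. At 4 h 5 of 13 tested sterol enzymes rose (Idi1, Sqle, Cyp51, Dhcr7 and Fdps) and 0 fell. At 8 h again 5 rose and 0 fell, with Lss in and Dhcr7 out. Among all genes tested, 8.01% rose and 5.51% fell at 4 h, and 9.88% rose and 9.26% fell at 8 h. The median change of the 13 sterol enzymes was 0.35 at 4 h and 0.28 at 8 h, beside -0.05 and -0.07 over all genes tested. Both comparisons share the untreated arrays.

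Idi1, the isomerase that makes the second of the 5-carbon building blocks, gave the steadiest response. Its signal was 518, 1169 and 1512 in wild-type cells and 525, 1191 and 1579 in Nrdp1-/- cells. Both genotypes thus followed nearly one course, and every stimulated array lay more than 2-fold above both untreated arrays. Idi1 rose by 1.17 ± 0.12 at 4 h (adjusted p = 8.42e-05) and by 1.56 ± 0.12 at 8 h (adjusted p = 8.03e-06). Its dimmer probe set moved the same way, by 0.88 and 1.45. The calls held in all 15 alternative analyses at either time.

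Sqle encodes squalene epoxidase, which inserts the oxygen that allows squalene to be cyclised. Its signal was 188, 422 and 604 in wild type and 328, 518 and 754 in Nrdp1-/- cells. All 4 stimulated arrays exceeded both untreated arrays, and the Nrdp1-/- array was the higher at each time. Sqle rose by 0.90 ± 0.17 at 4 h (adjusted p = 0.00581) and by 1.42 ± 0.17 at 8 h (adjusted p = 0.000273). The 4 h call was lost without the wild-type untreated array, where the adjusted p was 0.106.

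Cyp51, the lanosterol demethylase, gave 286, 529 and 521 in wild type and 247, 412 and 613 in Nrdp1-/- cells, and again no stimulated array overlapped the untreated ones. Wild-type cells were at their 8 h level by 4 h, while the Nrdp1-/- array at 8 h was above that at 4 h. Cyp51 rose by 0.80 ± 0.18 (adjusted p = 0.0131) and 1.07 ± 0.18 (adjusted p = 0.00216), and all 3 of its probe sets had positive changes at both times. The 4 h call was lost without the wild-type 4 h array (adjusted p = 0.198).

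Lss encodes the cyclase that folds squalene epoxide into lanosterol. The signal of its brightest probe set was 81.5, 220 and 306 in wild type, where both stimulated arrays stood far above the untreated one. In Nrdp1-/- cells it was 254, 272 and 358, so the untreated array already lay above the wild-type array at 4 h. The change was 0.74 ± 0.31 at 4 h (adjusted p = 0.144), and at 8 h Lss rose by 1.17 ± 0.31 (adjusted p = 0.0225). That call was lost without the wild-type untreated array (adjusted p = 0.308, with a change of 0.51) and without the wild-type 8 h array (adjusted p = 0.0861, with a change of 0.81). The 4 h change passed without the Nrdp1-/- untreated array, at 1.41, and without either 8 h array, at 0.74. A second probe set of Lss, above the median on all 6 arrays, gave 274, 267 and 188 in wild type and 267, 187 and 245 in Nrdp1-/- cells. Its change at 8 h was -0.33, opposite in sign, and its untreated arrays were alike. Whether the course of Lss differed between genotypes was not tested.

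Fdps, which joins the 5-carbon units into farnesyl diphosphate, gave 817, 1061 and 1257 in wild type and 914, 1284 and 1323 in Nrdp1-/- cells. These are small shifts, yet the 4 stimulated arrays did not overlap the untreated pair. Fdps rose by 0.43 ± 0.12 at 4 h (adjusted p = 0.0359) and 0.58 ± 0.12 at 8 h (adjusted p = 0.00736). The 4 h call was lost on leaving out either untreated array or the Nrdp1-/- 4 h array, and after median centring. Leaving out any 1 array kept the 8 h call.

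Dhcr7, the reductase of the last step to cholesterol, peaked at 4 h. Its signal was 293, 550 and 423 in wild type and 308, 504 and 315 in Nrdp1-/- cells. The 4 h arrays were the highest of either genotype, and the Nrdp1-/- array at 8 h was back at the untreated level. Dhcr7 rose by 0.80 ± 0.17 at 4 h (adjusted p = 0.0117, or 0.114 without the wild-type untreated array), and its change at 8 h was 0.28 ± 0.17 (adjusted p = 0.305). The difference of -0.52 ± 0.17 between 8 h and 4 h did not pass (adjusted p = 0.438).

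The other 7 sterol enzymes did not pass in either comparison. Hmgcs1, the synthase that commits acetyl units to the mevalonate route, gave 3720, 4171 and 3902 in wild type and 3461, 3176 and 3799 in Nrdp1-/- cells, with changes of 0.02 ± 0.11 and 0.10 ± 0.11. Stimulated and untreated arrays overlapped. The kinase Mvk (-0.15 ± 0.25 and -0.22 ± 0.25) and the decarboxylase Mvd (-0.29 ± 0.20 and 0.23 ± 0.20), which complete the mevalonate steps before Idi1, had wide errors for their size. Fdft1, the squalene synthase between Fdps and Sqle, had changes of 0.13 ± 0.13 and 0.20 ± 0.13.

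Msmo1, a methyl sterol oxidase, gave 777, 936 and 926 in wild type and 694, 940 and 969 in Nrdp1-/- cells. Its 4 stimulated arrays lay within 926 to 969 and above both untreated arrays, but the changes of 0.35 ± 0.13 (adjusted p = 0.0939) and 0.37 ± 0.13 (adjusted p = 0.0663) missed the threshold. The 8 h change passed without either 4 h array (adjusted p = 0.0394 without wild type and 0.0383 without Nrdp1-/-). Nsdhl, the dehydrogenase acting beside it, had changes of 0.09 ± 0.15 and 0.17 ± 0.15. Sc5d, a desaturase late in the pathway, had changes of -0.07 ± 0.13 and -0.05 ± 0.13.

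**Figure D1:**
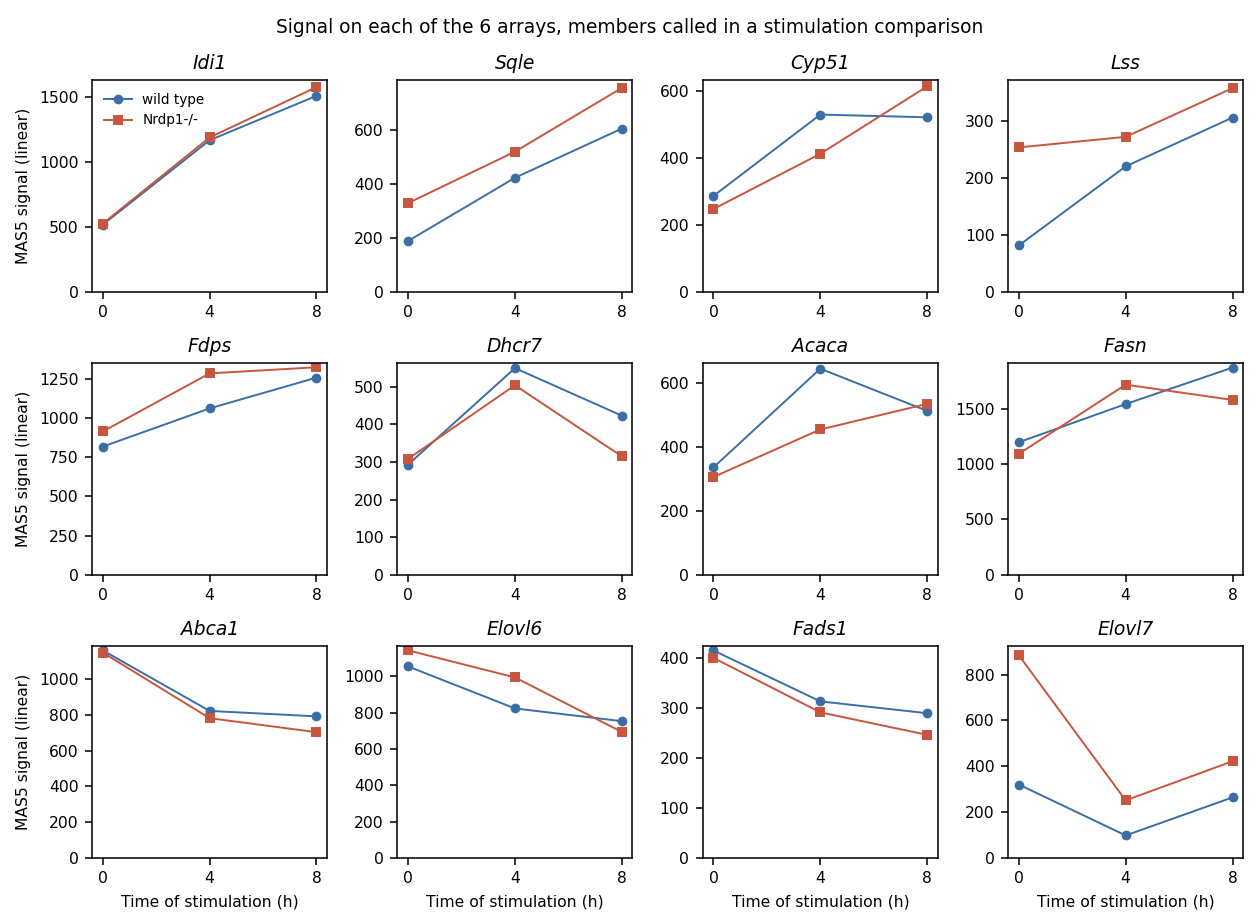
MAS5 signal (linear axis from 0) against hours of stimulation for the 12 genes called at 4 h or 8 h; each point is 1 array, circles wild type and squares Nrdp1-/-, with lines joining a genotype's arrays. Idi1 runs from 518 and 525 to 1512 and 1579 on nearly one line for both genotypes, whereas Elovl7 drops to 97.7 and 251 at 4 h.

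Because several sterol genes moved together, the promoter windows of the risen genes with a match to the NF-Y motif CCAAT are shown, with that of Hmgcs1, which held the only match to the sterol regulatory element core. NF-Y is a factor known to act beside SREBP at sterol promoters. The windows are RefSeq sequences of build GRCm38.p6, from 250 bases before to 50 after a transcription start, on the strand of the gene. Capitals mark CCAAT, or its complement ATTGG, and the SRE core TCACNCCAC.
Idi1, chr13:8885356-8885655, plus strand: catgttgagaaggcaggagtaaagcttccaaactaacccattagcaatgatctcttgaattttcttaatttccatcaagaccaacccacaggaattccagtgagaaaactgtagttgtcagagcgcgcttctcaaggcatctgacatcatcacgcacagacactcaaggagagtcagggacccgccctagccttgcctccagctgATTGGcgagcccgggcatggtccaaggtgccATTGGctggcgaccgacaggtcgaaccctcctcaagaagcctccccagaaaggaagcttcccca
Cyp51, chr5:4104648-4104947, minus strand: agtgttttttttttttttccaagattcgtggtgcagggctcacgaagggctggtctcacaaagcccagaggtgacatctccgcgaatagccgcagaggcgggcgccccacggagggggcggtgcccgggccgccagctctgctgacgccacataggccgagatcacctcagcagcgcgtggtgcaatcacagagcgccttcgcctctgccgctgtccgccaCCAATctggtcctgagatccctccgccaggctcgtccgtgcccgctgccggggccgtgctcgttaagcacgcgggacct
Lss, chr10:76531355-76531654, plus strand: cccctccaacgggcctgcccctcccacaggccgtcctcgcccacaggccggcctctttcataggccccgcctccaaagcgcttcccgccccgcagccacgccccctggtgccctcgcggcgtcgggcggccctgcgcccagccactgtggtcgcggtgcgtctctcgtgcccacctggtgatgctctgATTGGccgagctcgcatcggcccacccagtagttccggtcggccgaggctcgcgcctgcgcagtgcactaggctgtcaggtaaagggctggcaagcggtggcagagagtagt
Dhcr7, chr7:143829964-143830263, plus strand, the window of 1 of its 3 start sites: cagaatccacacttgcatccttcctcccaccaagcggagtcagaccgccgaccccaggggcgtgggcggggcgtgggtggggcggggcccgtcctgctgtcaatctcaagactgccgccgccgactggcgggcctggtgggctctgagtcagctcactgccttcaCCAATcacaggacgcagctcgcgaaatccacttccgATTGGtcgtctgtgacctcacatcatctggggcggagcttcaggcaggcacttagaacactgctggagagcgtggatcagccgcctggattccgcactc
Fasn, chr11:120824498-120824797, minus strand: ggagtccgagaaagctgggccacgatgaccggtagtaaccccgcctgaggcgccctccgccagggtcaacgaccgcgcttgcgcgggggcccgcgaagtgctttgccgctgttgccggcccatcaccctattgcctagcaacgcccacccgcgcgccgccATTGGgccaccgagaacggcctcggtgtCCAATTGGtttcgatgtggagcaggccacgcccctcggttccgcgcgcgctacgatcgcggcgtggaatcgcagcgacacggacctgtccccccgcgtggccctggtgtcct
Hmgcs1, chr13:119690101-119690400, plus strand: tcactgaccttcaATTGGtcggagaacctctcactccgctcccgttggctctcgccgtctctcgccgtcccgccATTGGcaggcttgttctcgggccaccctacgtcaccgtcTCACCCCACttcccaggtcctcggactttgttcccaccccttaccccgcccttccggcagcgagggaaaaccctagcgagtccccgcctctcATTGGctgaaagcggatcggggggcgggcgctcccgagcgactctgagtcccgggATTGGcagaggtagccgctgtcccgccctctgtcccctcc

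Windows were matched by symbol for 25 of the 33 genes, and not for Sqle, Fdps, Fdft1, Stard4, Abcg1, Scd1, Scd2 or Fads1. CCAAT was found on either strand for 10 of 11 sterol enzymes and 4 of 8 fatty acid enzymes, where a gene counted if any of its windows had a match. Of 8846 tested genes with a window 43.0% had one, and of all 32544 windows of this length 37.4%. In Fasn, the CCAAT at -62 and the ATTGG at -59 overlap. The GC box GGGCGG was found for 11 of 11 and 4 of 8, beside 68.3% of tested genes and 35.9% of windows. The SRE core was found for 1 of 25 genes, Hmgcs1, at -137 from the start, beside 1.44% of tested genes and 1.24% of windows. The palindrome TCACGTGA was found for 0 of 25, beside 2.34% of tested genes and 0.983% of windows. CCAAT was also found for sterol enzymes not called with stimulation, with 5 matches in Mvk, 4 in Nsdhl, 3 in Msmo1, 2 in Mvd and 1 in Sc5d. The window of Acaca, which rose, held 0 matches to any of these motifs. These matches are letters in a window, and their part in the changes was not tested. The gene with the SRE core was not called, and Idi1, with CCAAT at -45 and -14 on the opposite strand, had the largest rise.

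None of the 5 regulators was called at 4 h, at 8 h or between them in limma, and 0 had an unadjusted p under 0.05 in any of these comparisons. Of all 10838 genes tested, 8.01% rose and 5.51% fell at 4 h, and 9.88% rose and 9.26% fell at 8 h. At an unadjusted p under 0.05, 1443 were higher and 1548 lower at 4 h, and 1553 and 1960 at 8 h. With 5 genes, a count of 0 says little against these shares. Srebf2 gave 1178, 1205 and 1246 in wild type and 1325, 1159 and 1057 in Nrdp1-/- cells, with changes of -0.08 ± 0.13 and -0.12 ± 0.13. Srebf1 gave 2044, 2176 and 2312 in wild type and 2474, 2481 and 2189 in Nrdp1-/- cells, and its changes were 0.05 ± 0.12 and 0.00 ± 0.12. The array does not report the cleaved, active proteins. The brightest Scap probe set lay between 1989 and 2251 on the 6 arrays, and a dimmer one between 92.0 and 223.

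Insig1, which is itself an SREBP target and a brake on Scap, gave 732, 1001 and 863 in wild type and 899, 823 and 980 in Nrdp1-/- cells. Wild-type signal was above untreated at both times, while the Nrdp1-/- array at 4 h lay below its untreated one, and the changes were 0.16 ± 0.15 and 0.18 ± 0.15. The brightest probe set of Insig2, the SREBP-independent relative of Insig1, lay between 664 and 783 on all 6 arrays. Its changes were -0.05 ± 0.13 and -0.10 ± 0.13. Another Insig2 probe set, above the median on all 6 arrays, gave 514, 437 and 362 in wild type and 564, 310 and 475 in Nrdp1-/- cells. Its changes were -0.54 and -0.37, and those of the third were -0.12 and -0.27. These probe sets were not tested singly.

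Of the sterol transport genes Abca1 fell and the other two were not called. Abca1, the exporter that passes cholesterol to lipid-poor apolipoprotein, gave 1162, 823 and 793 in wild type and 1150, 782 and 704 in Nrdp1-/- cells. Both genotypes began alike and all stimulated arrays were below both untreated arrays. It fell at 4 h (-0.52 ± 0.12, adjusted p = 0.0169) and at 8 h (-0.63 ± 0.12, adjusted p = 0.00545). Its other 2 probe sets were below the array median on every array, at 2.36 to 42.0, and averaging all 3 on the log scale gave 0.47 and 0.48, neither of them called. The call was also lost without the Nrdp1-/- untreated array, at 4 h and at 8 h, and at 4 h without the wild-type untreated array.

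Abcg1, which exports cholesterol to mature lipoprotein particles, gave 1423, 1203 and 1347 in wild type and 1435, 1546 and 1495 in Nrdp1-/- cells. The stimulated arrays were below untreated in wild type and above it in Nrdp1-/- cells, and the changes were -0.07 ± 0.12 and -0.01 ± 0.12. Stard4, a carrier that moves sterol between membranes, gave 633, 690 and 689 in wild type and 922, 783 and 628 in Nrdp1-/- cells. Untreated Nrdp1-/- cells thus had the highest value of the 6, and the changes were -0.06 ± 0.16 and -0.21 ± 0.16.

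Of the fatty acid enzymes, Acaca and Fasn, which make palmitate from acetyl-CoA, rose at both times. At 4 h 2 of 10 tested rose and 1 fell (Elovl7), where 8.01% of all genes rose and 5.51% fell. At 8 h 2 rose and 2 fell (Elovl6 and Fads1), where 9.88% rose and 9.26% fell. Acly, Elovl1, Elovl5, Scd1 and Scd2 were called at neither time. The median change of the 10 tested fatty acid enzymes was 0.01 at 4 h and -0.19 at 8 h. Over all genes tested it was -0.05 and -0.07.

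Acaca, the carboxylase that makes malonyl-CoA, gave 336, 645 and 513 in wild type and 306, 454 and 535 in Nrdp1-/- cells. All 4 stimulated arrays exceeded both untreated arrays, with the highest value in wild type at 4 h. Acaca rose by 0.75 ± 0.17 (adjusted p = 0.0148) and by 0.70 ± 0.17 (adjusted p = 0.0164). The 4 h call was lost without the wild-type 4 h array, and the 8 h call without the wild-type untreated or the Nrdp1-/- 8 h array.

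Fasn, the multienzyme that builds palmitate, gave 1197, 1542 and 1871 in wild type and 1093, 1717 and 1579 in Nrdp1-/- cells, with no overlap between stimulated and untreated arrays. Fasn rose by 0.51 ± 0.13 at 4 h (adjusted p = 0.0218) and 0.59 ± 0.13 at 8 h (adjusted p = 0.00874). The 4 h call was lost without either the untreated or the 4 h Nrdp1-/- array, and the 8 h call without the wild-type 8 h array. Acly, which supplies their cytosolic acetyl-CoA from citrate, stayed between 5147 and 5689 on all 6 arrays and had changes of 0.07 ± 0.10 and 0.04 ± 0.10.

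Elovl7, an elongase of long saturated acyl chains, fell most of all the members at 4 h. Its signal was 320, 97.7 and 264 in wild type and 885, 251 and 422 in Nrdp1-/- cells. In both genotypes the 4 h array was the lowest and the 8 h array lay between it and the untreated one. The change at 4 h was -1.73 ± 0.22 (adjusted p = 0.000366), and all 6 of its probe sets had negative changes, from -0.87 to -1.93. The change at 8 h was -0.67 ± 0.22 (adjusted p = 0.0525), at -0.27 in wild type and -1.06 in Nrdp1-/- cells. It passed without the wild-type untreated array (-0.90, adjusted p = 0.0221), without the wild-type 8 h array (-1.03, adjusted p = 0.00314), without either 4 h array and after median centring. The difference of 1.07 ± 0.22 between 8 h and 4 h did not pass (adjusted p = 0.104), but passed without the wild-type untreated array (adjusted p = 0.000417), without the Nrdp1-/- untreated array and without the Nrdp1-/- 8 h array. Of 12 tested myeloid markers 1 rose and 1 fell at 4 h, and 6 fell at 8 h. In Nrdp1-/- cells the sum of 13 myeloid markers was 9461 at 4 h and 3668 at 8 h, and Elovl7 was 251 and 422. The part of myeloid cells in the Elovl7 change was not tested. The step from 4 h to 8 h varied among Elovl7 probe sets. In Nrdp1-/- cells another probe set gave 294 and 299 at these times, and a further probe set 66.4 and 127.

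The brightest probe set of Elovl6, which elongates palmitate to stearate, gave 1055, 823 and 753 in wild type and 1143, 994 and 694 in Nrdp1-/- cells. This was a stepwise decline in both genotypes. The change of Elovl6 at 4 h was -0.28 ± 0.13 (adjusted p = 0.208) and it fell at 8 h (-0.60 ± 0.13, adjusted p = 0.0106). The 8 h call was lost without either the untreated or the 8 h Nrdp1-/- array, and with the mean of probe sets. A second Elovl6 probe set, above the median on all 6 arrays, gave 307, 396 and 330 in wild type and 465, 384 and 356 in Nrdp1-/- cells. Its changes were 0.05 and -0.14. At 8 h all 3 probe sets had negative changes, from -0.14 to -0.60. Fads1, the delta-5 desaturase of polyunsaturated chains, gave 416, 314 and 290 in wild type and 401, 292 and 247 in Nrdp1-/- cells, with no overlap between stimulated and untreated arrays. Its change at 4 h was -0.43 ± 0.17 (adjusted p = 0.135), and it fell at 8 h (-0.60 ± 0.17, adjusted p = 0.0325). That call was lost on leaving out any of the 4 untreated or 8 h arrays, and its second probe set had a change of 0.24.

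The remaining fatty acid enzymes did not pass. Elovl5, the elongase of polyunsaturated chains, lay between 8079 and 9848, with changes of -0.10 ± 0.10 and -0.21 ± 0.10. Elovl1, which makes very long chains, had changes of 0.05 ± 0.10 and 0.22 ± 0.10. The stearoyl-CoA desaturases Scd1 and Scd2, which place the first double bond, had changes of 0.22 ± 0.26 and -0.47 ± 0.26 for Scd1 and of -0.03 ± 0.16 and -0.17 ± 0.16 for Scd2.

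Set side by side, the sterol enzymes had the higher median change. The median of the 13 sterol enzymes minus that of the 10 fatty acid enzymes was 0.34 at 4 h and 0.47 at 8 h. Over all genes tested the median change was -0.05 at 4 h and -0.07 at 8 h. Within the genotypes the medians at 4 h were 0.27 and -0.04 in wild type and 0.18 and 0.02 in Nrdp1-/- cells, for sterol and fatty acid enzymes in that order. At 8 h they were 0.37 and -0.06 in wild type and 0.21 and -0.36 in Nrdp1-/- cells. At 8 h 11 of 13 sterol enzymes and 4 of 10 fatty acid enzymes had a positive change, beside 4619 of all 10838 genes tested. This is a description of 2 chosen lists, with no test. At 4 h the gap was 0.11 without the wild-type untreated array, 0.13 with the mean of each gene's probe sets, and 0.049 when regulators and transporters joined either list.

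Between 4 h and 8 h 0 of 31 genes were called in limma, where 0.0185% of all genes tested were higher and 0.0277% lower. At an unadjusted p under 0.05 in limma, 4 were higher and 3 lower, beside 376 and 531 of all 10838 genes tested. Elovl7 was called on leaving out 1 of 3 arrays, as given above.

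**Figure D2:**
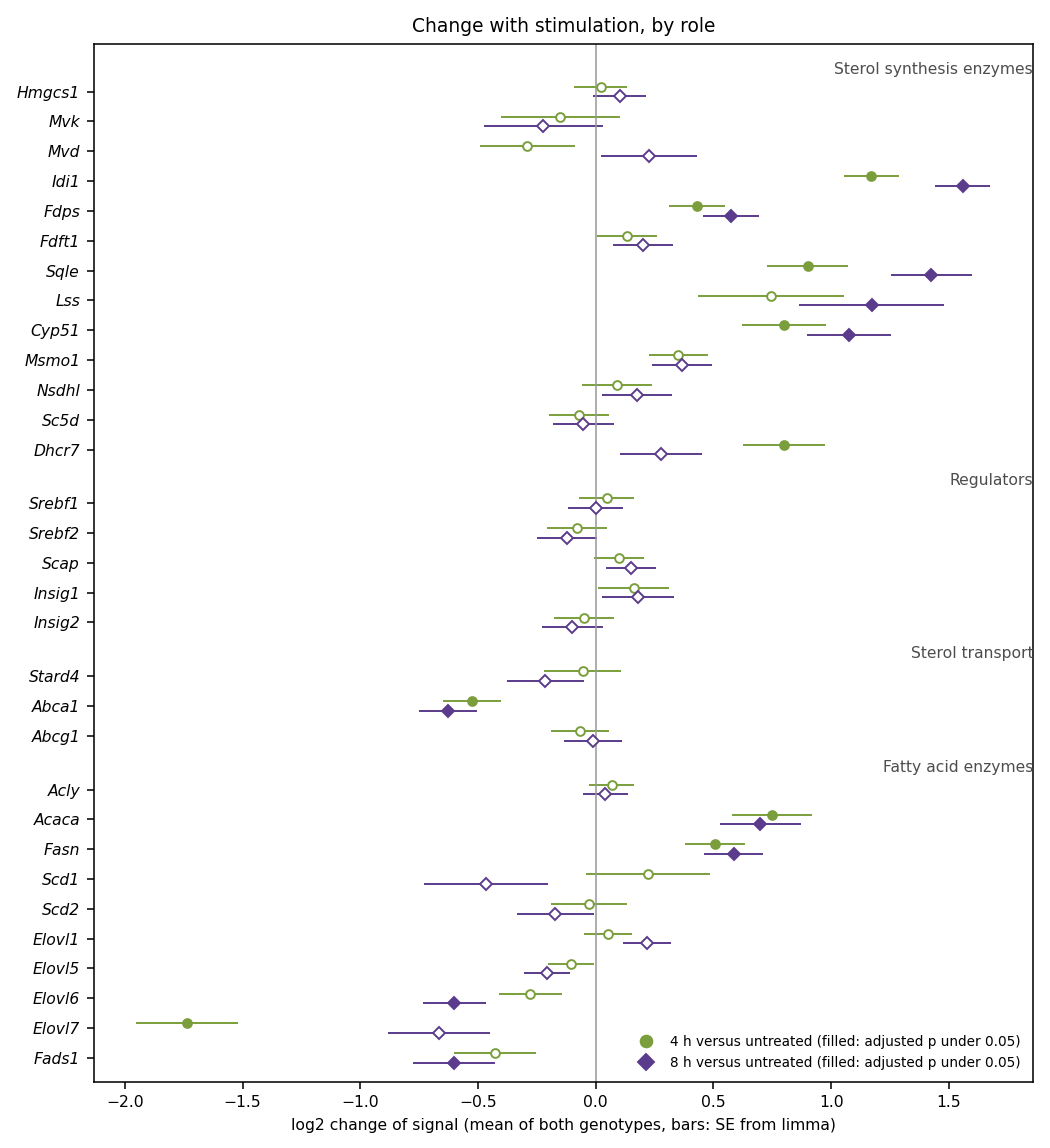
Change in log2 signal at 4 h (circles) and 8 h (diamonds) against untreated for the 31 tested genes, as the mean of both genotypes with the SE from limma, grouped by role; filled symbols passed an adjusted p of 0.05. The sterol enzymes reach from -0.29 (Mvd at 4 h) to 1.56 (Idi1 at 8 h), and the lowest point is Elovl7 at 4 h, at -1.73.

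The calls at 4 h and 8 h depended on how the variance was estimated. Without an intensity trend in the variance prior, 1 sterol enzyme (Idi1) was called at either time and 0 fatty acid enzymes were, while over all genes 83 were higher and 4 lower at 4 h, in place of 868 and 597. Without the wild-type untreated array, 2 sterol enzymes rose at 4 h in place of 5. Only 1 fatty acid enzyme rose at 4 h without the wild-type 4 h, Nrdp1-/- untreated or Nrdp1-/- 4 h array, and at 8 h without the wild-type untreated or either 8 h array. At 8 h 0 fatty acid enzymes fell in limma without the Nrdp1-/- untreated or the Nrdp1-/- 8 h array.

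Lists of other genes of these pathways are given by their counts, to be read against the share of all genes called, which was 8.01% risen and 5.51% fallen at 4 h and 9.88% and 9.26% at 8 h. Of 6 tested genes of further sterol synthesis and uptake, Tmem97, a sterol-responsive membrane protein, rose at 4 h (1.35 ± 0.29) and 8 h (1.93 ± 0.29). Its signal was 83.1, 170 and 243 in wild type and 63.2, 215 and 341 in Nrdp1-/- cells, where the untreated value was below the array median. Lpin1, a phosphatidate phosphatase, fell at 8 h (-0.49 ± 0.12). Of 8 genes of SREBP processing and decay 0 rose and 2 fell at both times: Mylip, the ligase that marks lipoprotein receptors for decay (-0.61 ± 0.11 and -0.51 ± 0.11), and Rnf145, a ligase of the sterol response (-0.44 ± 0.10 and -0.47 ± 0.10).

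Mylip is, like Abca1, a target of LXR, and of the 6 tested genes of the LXR list it was the only one called at 4 h. At 8 h Apoe joined it (-0.95 ± 0.16). Nr1h3, which encodes LXR alpha, was at 31.8 to 92.1, near the array medians, and was not called (-0.84 ± 0.50 and 0.23 ± 0.50). Of 6 tested genes of sterol storage and lysosomal export, Lipa, the lysosomal lipase, fell at 4 h (-0.45 ± 0.11) and 8 h (-0.70 ± 0.11), with 0 risen. At 8 h 6 myeloid markers fell as well, in the mean of both genotypes. In wild type the myeloid sum was 3042, 3472 and 2873, Apoe 1360, 1108 and 671, and Lipa 2998, 2226 and 1960. In Nrdp1-/- cells the sum was 13643, 9461 and 3668, Apoe 254, 184 and 136, and Lipa 2739, 1981 and 1587. The part of myeloid cells in the Apoe and Lipa values was not tested.

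Of 12 other fatty acid supply genes 2 rose and 1 fell at either time. Dgat2, which makes triglyceride, rose by 1.16 ± 0.28 and 2.07 ± 0.28, from 59.4 and 71.7 untreated to 261 and 320 at 8 h, where the untreated wild-type value was below the array median. The acyl-CoA synthetase Acsl5 rose by 0.82 ± 0.10 and 0.76 ± 0.10. Acss2, which makes acetyl-CoA from acetate and is an SREBP target, fell (-0.58 ± 0.13 and -0.49 ± 0.13). Of 13 fatty acid oxidation genes 0 rose at either time, and Acadm, the medium-chain dehydrogenase, fell at 4 h (-0.32 ± 0.10).

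Between the genotypes few members differed. Averaged over the 3 times, 1 of 31 genes was higher in Nrdp1-/- cells (Elovl7) and 2 were lower (Scd1 and Sc5d), where 2.47% of all genes tested were higher and 2.57% lower. The median difference was 0.02 for the sterol enzymes, -0.01 for the fatty acid enzymes and -0.01 over all genes tested. The 5 regulators and 3 transport genes held no call, with 0 of these 8 at an unadjusted p under 0.05. Of all 10838 genes tested, 856 were higher and 935 lower at that threshold. For Stard4 the count rests on the brightest probe set (0.20 ± 0.13). Its dimmer probe sets, above the median on all 6 arrays, had mean differences of 0.75 and 0.79 with no overlap. They gave 238, 281 and 275 in wild type against 392, 458 and 498, and 315, 267 and 341 against 523, 588 and 489. These probe sets were not tested singly.

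Scd1 had the largest genotype difference of the 31 tested members. Its signal was 430, 430 and 313 in wild type and 65.5, 90.7 and 45.7 in Nrdp1-/- cells. The lowest wild-type array was more than 3-fold above the highest Nrdp1-/- array, and the last of the Nrdp1-/- values lay below the array median of 68.6. Untreated wild-type cells had 6.56-fold the Nrdp1-/- signal, the ratio at 4 h was 4.75-fold, and against the array median at 8 h it was at least 4.57-fold. Computed on the signals as deposited, the mean difference was -2.50 ± 0.22 (adjusted p = 3.81e-05), and it was called in all 16 alternatives, at -1.87 to -2.65. Its exact size is uncertain, since the Nrdp1-/- signal was close to the array median untreated and below it at 8 h.

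The second Scd1 probe set was dim, at 32.7 to 48.2 in wild type and 1.71 to 35.9 in Nrdp1-/- cells. Scd2, the neighbouring gene for a second desaturase, gave 733, 695 and 784 in wild type and 847, 857 and 624 in Nrdp1-/- cells, and its difference was 0.06 ± 0.13. None of the 5 tested genes on either side of Scd1 in the RefSeq gene order of chromosome 19 was called. They included Ndufb8 (-0.11 ± 0.08) and Slf2 (-0.30 ± 0.09, adjusted p = 0.0935). These neighbours were looked at after the Scd1 values were seen.

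B cell markers moved with Scd1. Their sum was 5.10, 4.82 and 5.01 times higher in wild type than in Nrdp1-/- cells, in the order of times, and 8 of 8 tested B cell markers were lower in Nrdp1-/- cells, with a median of -2.16. Ms4a1, which encodes CD20, gave 2930, 2346 and 2914 in wild type and 403, 262 and 255 in Nrdp1-/- cells. Their part in the Scd1 difference was not tested. Cr2 and Fcer2a were below the array median on all 6 arrays and Pax5 on 5 of 6. Apoe and Lpin1 of the other lists were lower in Nrdp1-/- cells as well, at -2.41 ± 0.13 and -0.83 ± 0.10.

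Elovl7 was higher in Nrdp1-/- cells at each time, by 1.45 untreated, 1.32 at 4 h and 0.67 at 8 h. The mean difference was 1.15 ± 0.18 (adjusted p = 0.00271), and its 6 probe sets all had positive differences, from 0.48 to 1.15. The call held on leaving out each array, and was lost without the intensity trend (adjusted p = 0.116). Myeloid markers were higher on the same arrays, with 6 of 12 tested higher, 1 lower and a median of 1.51, and the median narrowed with time from 2.58 to 1.19 and 0.74. Their part in the Elovl7 difference was not tested.

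Sc5d gave 1124, 964 and 1035 in wild type and 751, 793 and 757 in Nrdp1-/- cells, and the genotypes did not overlap. It was lower in Nrdp1-/- cells by a small margin (-0.44 ± 0.11, adjusted p = 0.0372). A second probe set had a difference of 0.22, and the call was lost without the untreated or the 8 h array of either genotype and after median centring.

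Lss and Sqle, which rose with stimulation, had positive differences at each time in their brightest probe sets that did not pass the test. The Lss difference was 1.59 untreated, 0.30 at 4 h and 0.22 at 8 h, a mean of 0.70 ± 0.25 (adjusted p = 0.168), while its second probe set had a mean difference of -0.05. For Sqle the differences were 0.79, 0.29 and 0.32, a mean of 0.47 ± 0.14 (adjusted p = 0.0979). The Lss value passed without either 8 h array (0.94, adjusted p = 0.0146 without wild type and 0.0191 without Nrdp1-/-). Idi1, by contrast, differed by only 0.02, 0.03 and 0.06.

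**Figure D3:**
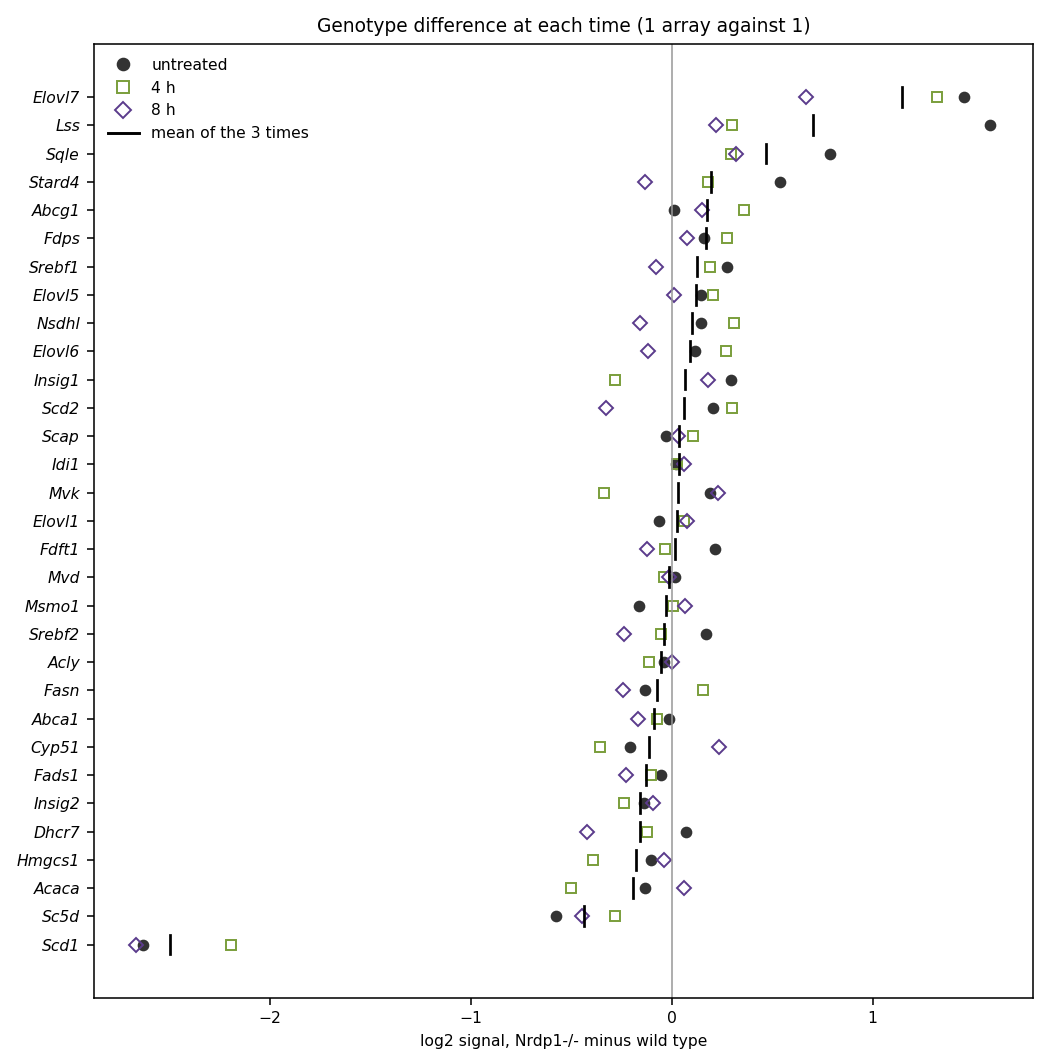
Nrdp1-/- minus wild-type log2 signal for the 31 tested genes, ordered by their mean: filled circles untreated, open squares 4 h, open diamonds 8 h, each 1 array against 1, and a bar for the mean. The Scd1 points, plotted at the deposited signals, lie at -2.19 and below, where the 8 h point rests on a Nrdp1-/- signal below the array median. Elovl7 lies between 0.67 and 1.45, and the untreated point of Lss (1.59) stands apart from its other two.

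**Figure D4:**
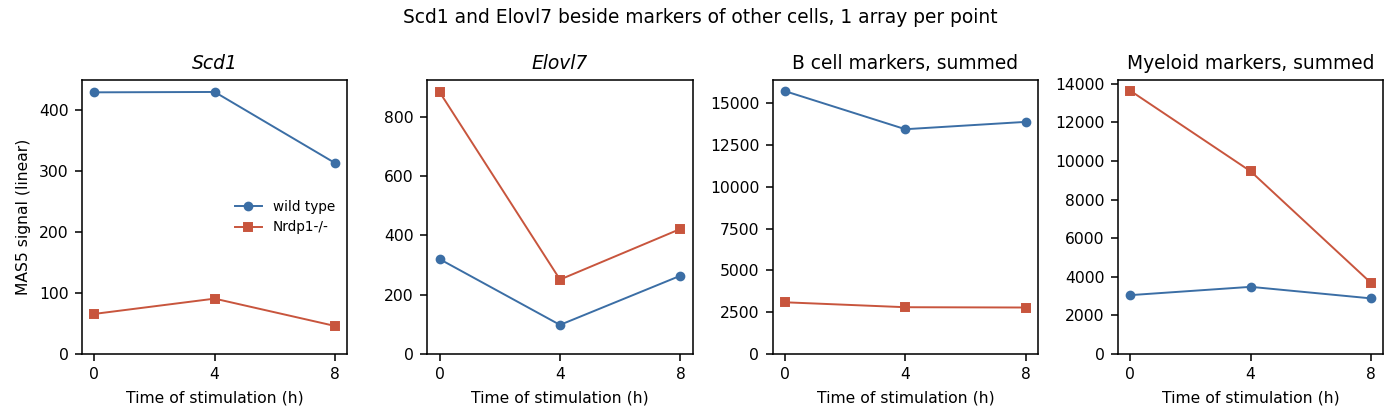
MAS5 signal (linear axes from 0) of Scd1 and Elovl7 beside the summed signal of 11 B cell and 13 myeloid markers, 1 array per point, circles wild type and squares Nrdp1-/-. Scd1 and the B cell sum (2772 to 3086) are low on all 3 Nrdp1-/- arrays, and the myeloid sum of Nrdp1-/- cells falls from 13643 to 3668.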

How the data were processed

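One series table was used, with 45101 probe sets on 6 arrays. Its intensity values were deposited by the authors as MAS5 signal, per the submitters' processing notes, with no version given. Trimmed by 2% at either end, each array averaged 500.0; this scaling hides a shift shared by most transcripts. Array medians were 61.5 to 68.6. The 64 control probe sets were dropped. GEO's annotation gave 1 symbol to 34945 probe sets, several to 932 and none to 9160.

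A model of time and genotype was fitted with limma 3.58.1 in R 4.3.3 to log2(signal + 4.45), the 10th percentile of all values. It had 2 residual and 8.99 prior degrees of freedom, an intensity trend and Benjamini-Hochberg adjustment over 10838 genes. Genes were named by role: all members, and up to 4 called genes per other list and comparison. Alternatives covered normalization, pseudocount, filter, probe sets, trend, a 2-fold minimum and leaving out each array. The number of arrays limits the precision. Members and lists were chosen with earlier results of these data known.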

Additional observations from a re-analysis of the deposited data

Results flagged for a closer look

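For 4 genes both stimulated arrays lay to one side of the untreated array in wild-type cells and to the other side in Nrdp1-/- cells. With 1 array per condition this difference was not tested, and small shifts of either sign can produce it. The mean change with stimulation in Nrdp1-/- cells minus that in wild type was 0.21 for Sc5d, -0.32 for Srebf2, -0.51 for Stard4 and 0.24 for Abcg1. These values rest on the brightest probe set of each gene. None of their other probe sets above the median on all 6 arrays repeated these directions. The second Abcg1 probe set gave 296, 339 and 323 in wild type and 338, 298 and 256 in Nrdp1-/- cells, the reverse of the first. A Stard4 probe set rose in both genotypes, from 238 to 275 and from 392 to 498 at 8 h. None of the 4 was called with stimulation at 4 h or 8 h.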

How the results depend on the processing

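Idi1 at 4 h and 8 h and Scd1 between genotypes passed the threshold in every alternative run. Without the intensity trend 1 sterol enzyme rose at 4 h and 1 at 8 h, with 0 fatty acid enzymes higher and 0 lower at either time, and between genotypes 0 sterol enzymes were lower and 0 fatty acid enzymes higher. A 2-fold minimum left 1 sterol enzyme and 0 fatty acid enzymes risen at 4 h, 0 fatty acid enzymes risen and 0 fallen at 8 h, and 0 sterol enzymes lower between genotypes. The mean of probe sets gave 3 sterol enzymes higher and 1 lower at 4 h, 3 higher at 8 h, 1 fatty acid enzyme higher at either time, 0 lower at 8 h, 0 sterol enzymes lower between genotypes, and a gap between sterol and fatty acid medians of 0.13 at 4 h. It turned Abca1 to 0.47 at 4 h and 0.48 at 8 h, where dim probe sets enter the mean. Without a filter on dim probe sets 1 fatty acid enzyme fell at 8 h. Median centring, and the stimulated arrays alone, left 0 sterol enzymes lower between genotypes. Wider lists gave gaps of 0.049 at 4 h and 0.35 at 8 h. The cause of these shifts was not tested beyond what each alternative leaves out.

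Leaving out each array in turn gave 2 to 6 sterol enzymes and 1 to 2 fatty acid enzymes risen at 4 h, and 1 to 2 fatty acid enzymes risen and 0 to 3 fallen at 8 h. Between 8 h and 4 h 0 to 1 fatty acid enzyme was higher (Elovl7), and between genotypes 0 to 1 sterol enzyme was higher and 0 to 1 lower. The gap between the medians was 0.11 to 0.41 at 4 h, 0.43 to 0.60 at 8 h and 0.16 to 0.33 between them. Of the genes not called, 15 of 22 at 4 h, 10 of 21 at 8 h, 19 of 31 between them and 16 of 28 between genotypes took the opposite sign in at least 1 alternative. Sc5d fell at 4 h (-0.96) and Stard4 was higher in Nrdp1-/- cells (0.58) with the mean of probe sets. The Sc5d mean includes a dim probe set, above the median on only 1 array, with a change of -2.54. Its brighter probe sets changed by -0.07 and -0.26. The labels carry no replicate numbers to pair arrays by, and the comparisons with untreated arrays are already made within genotype, which is a term of the fit.

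Over all genes tested, 868 rose and 597 fell at 4 h, 1071 and 1004 at 8 h, 2 and 3 between them, and 268 were higher and 279 lower in Nrdp1-/- cells. Without the intensity trend these were 83 and 4, 103 and 5, 0 and 0, and 42 and 57 in limma. Median centring gave 386 fallen at 4 h, and 7 higher and 33 lower between 8 h and 4 h. The mean of probe sets gave 322 fallen at 4 h, 479 at 8 h and 181 lower in Nrdp1-/- cells. A 2-fold minimum left 268 and 38, 311 and 46, 1 and 1, and 105 and 95, in the same order. Without the Nrdp1-/- untreated array 574 rose and 217 fell at 4 h and 700 and 349 at 8 h, and without the Nrdp1-/- 8 h array 689 rose and 392 fell at 8 h. At 8 h 603 fell without the wild-type untreated array. Other counts grew: 940 and 941 fell at 4 h without the wild-type or the Nrdp1-/- 8 h array, and 1515 and 1537 fell at 8 h without the wild-type or the Nrdp1-/- 4 h array. Between 8 h and 4 h, leaving out 1 array gave 18 to 46 higher and 14 to 79 lower.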
